A study of Mus musculus with 28 samples.

Results

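Splicing regulators of the Nova, Rbfox, Ptbp and Elavl families were followed in mouse cortex after brain injury, with and without the RNA-binding protein Rbm5. The 10 genes were Nova1, Nova2, Rbfox1, Rbfox2, Rbfox3, Ptbp1, Ptbp2, Elavl2, Elavl3 and Elavl4, each represented by the array row annotated with its symbol (the brightest one, where a symbol has several). Each had 1 row, and 9 of the 10 had a row of their own among 30607 named genes. The row of Elavl2 also lists Mir6402, a microRNA gene of 80 bases inside the Elavl2 gene, so it is described separately and is not counted among the members.

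These proteins bind short motifs in pre-mRNA and decide which exons are kept. Ptbp1 (polypyrimidine tract binding protein) is made mainly outside neurons and in neural progenitors, where it holds neuronal exons back. When neurons form, Ptbp1 is switched off, Ptbp2 takes its place for a time, and the Nova, Rbfox and neuronal Elavl (Hu) proteins set the splicing of synaptic, channel and cytoskeletal transcripts. Rbfox3 is the antigen NeuN, the usual marker of neuronal nuclei in cortex.

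Total RNA of cortical tissue was measured on Affymetrix MTA 1.0 arrays in 28 mice aged 12 to 15 weeks, 7 in each of 4 groups. Wild type mice (WT) and mice labelled knockout for Rbm5 (KO) underwent either sham treatment or controlled cortical impact (CCI), a mechanical injury of the cortex. Sham mice were anaesthetised and left to recover, and injured mice had a craniotomy and then an impact of 6 m/s to a depth of 1.2 mm, so the injury change holds both procedures. Brains were collected at 48 h. Each group mixed the sexes, with 4 males in KO sham and 3 in each other group. The knockout construct, the cell types it affects and the strain are not given in the labels used here.

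As the sequence context of the results, 250 bases upstream of a start site are shown for 3 members that differed in their response to injury: Ptbp1, which rose, its paralog Ptbp2, which did not pass the test, and Nova1, which fell most. They are RefSeq sequences of build GRCm38.p6, written 5′ to 3′ on the strand of the gene, for Ptbp1 chr10:79854182-79854431 (plus strand), for Ptbp2 chr3:119783389-119783638 (minus strand) and for Nova1 chr12:46818768-46819017 (minus strand). Capitals mark every match, on either strand, to TATAAA (the TATA box), to CCAAT (the CCAAT box), to GGGCGG (the GC box) or to CACGTG (an E-box); overlapping matches run together.
Ptbp1: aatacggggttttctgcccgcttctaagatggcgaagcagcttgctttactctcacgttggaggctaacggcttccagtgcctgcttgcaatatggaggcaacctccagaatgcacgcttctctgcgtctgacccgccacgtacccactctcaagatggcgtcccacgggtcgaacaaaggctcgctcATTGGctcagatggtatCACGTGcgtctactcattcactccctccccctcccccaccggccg
Ptbp2: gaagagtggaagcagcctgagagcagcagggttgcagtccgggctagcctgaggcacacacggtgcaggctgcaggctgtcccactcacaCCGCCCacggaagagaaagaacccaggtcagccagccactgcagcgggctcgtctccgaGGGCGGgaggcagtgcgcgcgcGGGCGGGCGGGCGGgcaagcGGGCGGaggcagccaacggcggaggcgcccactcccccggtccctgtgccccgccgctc
Nova1: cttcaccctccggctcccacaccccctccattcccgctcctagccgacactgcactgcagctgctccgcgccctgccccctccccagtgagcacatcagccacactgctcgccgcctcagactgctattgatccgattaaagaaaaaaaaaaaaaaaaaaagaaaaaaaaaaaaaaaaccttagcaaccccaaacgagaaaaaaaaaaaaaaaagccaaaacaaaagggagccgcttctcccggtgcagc
The Ptbp1 stretch held 1 CCAAT match, on the opposite strand, and 1 CACGTG match. The Ptbp2 stretch held 6 GGGCGG matches and the Nova1 stretch none of the 4 motifs. Among 32851 stretches of the same length in the table, the CCAAT box occurred in 33.9%, the GC box in 32.7%, the TATA box in 12.4% and the E-box in 6.02%. CpG dinucleotides numbered 17 for Ptbp1, 23 for Ptbp2 and 11 for Nova1, against a median of 6. A match describes the letters alone, and no binding was measured. The Ptbp1 stretch ends where the gene span given below begins. Those of Ptbp2 and Nova1 lie inside their gene spans, so each precedes a start site that is not the outermost.

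Rbm5 served as the check of the genotype labels. Its mean log2 signal in sham and injured mice was 10.78 and 10.66 in WT, against 9.76 and 9.75 in KO, and every KO array lay below every WT array. The source of the signal left in KO was not tested. Array medians lay between 5.79 and 5.90. On 7 arrays an earlier analysis had found high striatum or choroid plexus markers (KO CCI replicates 40 and 22, WT CCI replicates 35, 16, 14 and 13, and WT sham replicate 25). Here the mean over 6 striatal markers ran from 6.75 to 9.58 in injured WT and from 6.80 to 9.90 in injured KO mice, against 6.88 to 7.51 and 6.97 to 8.20 in the sham groups. Values without those 7 arrays are given beside a named gene where they end or add its call or move it by over 1.5 times.

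Injury changed most of these regulators in WT mice, and not in one direction. In a limma fit of 4 group means plus sex, 7 of the 9 members passed an adjusted p of 0.05 (Benjamini-Hochberg over all 65956 rows tested), against 16.8% of all rows. Ptbp1 and Rbfox2 rose (2 of 9, against 8.86% of all rows) and Nova1, Nova2, Rbfox1, Rbfox3 and Elavl4 fell (5 of 9, against 7.96%). The median change of the 9 was -0.21 on the log2 scale, against -0.02 over all rows. In KO mice 5 of 9 passed, against 16.7% of all rows: Ptbp1 rose (1 of 9, against 8.43%), and Nova1, Rbfox1, Rbfox3 and Elavl4 fell (4 of 9, against 8.27%). Their median was -0.19, against 0.01 over all rows. The groups did not overlap for 6 members in WT (2 higher and 4 lower) and for 5 in KO (1 higher and 4 lower). Among all rows the WT groups did not overlap for 4.44% (higher) and 2.82% (lower), and the KO groups for 3.51% and 2.87%. The limma p-values rest on the spread between animals within groups. It is 1 estimate per row shared by the 4 groups of 7, drawn toward that of the other rows.

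**Figure D1:**
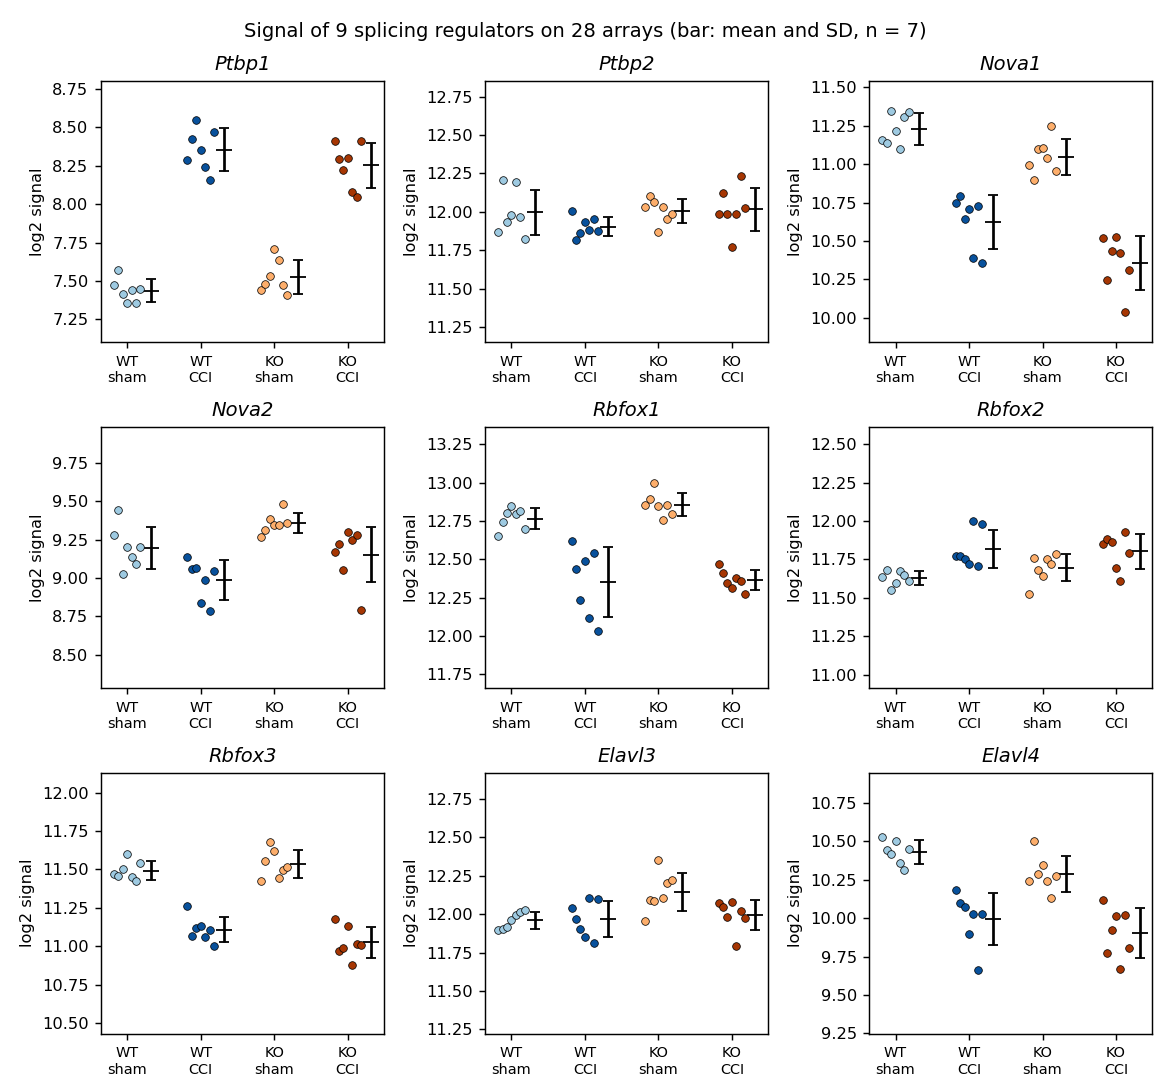
Log2 signal (vertical axis, a separate range but the same span per panel) of the 9 members by group; points are single arrays and bars the mean and SD of 7. Ptbp1 lies between 7.36 and 7.71 on every sham array and between 8.05 and 8.55 on every injured array, while Nova1, Rbfox1, Rbfox3 and Elavl4 lie lower after CCI.

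Ptbp1 (chr10:79854432-79864435 on GRCm38), the repressor of neuronal exons, rose in both genotypes, by more than any other member changed in WT. Its log2 signal ran from 7.36 through a median of 7.44 to 7.57 in WT sham and from 8.16 through 8.36 to 8.55 in WT CCI. The KO sham arrays ran from 7.41 through 7.48 to 7.71 and the KO CCI arrays from 8.05 through 8.29 to 8.41. Every injured array was above every sham array of either genotype. The rise was 0.92 in WT (SE 0.07, 1.89-fold, limma adjusted p = 5.44e-11) and 0.73 in KO (SE 0.07, 1.65-fold, limma adjusted p = 7.43e-09). The sample titles carry numbers from 1 to 42 in a pair of runs that the labels do not call batches. The WT rise was 0.95 in numbers 1 to 24 and 0.88 in numbers 25 to 42, and the KO rise 0.77 and 0.67.

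Ptbp2 (chr3:119718741-119784647), the paralog of Ptbp1 that neurons use as they mature, did not pass the test. Its log2 signal ran from 11.82 through 11.96 to 12.21 in WT sham and from 11.82 through 11.88 to 12.00 in WT CCI. KO sham arrays lay between 11.87 and 12.10 (median 12.03) and KO CCI arrays between 11.77 and 12.23 (median 11.99). The groups overlapped throughout. The difference was -0.09 in WT (95% interval -0.22 to 0.03, limma adjusted p = 0.378) and 0.02 in KO (-0.11 to 0.14, limma adjusted p = 0.904).

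Nova1 (chr12:46697895-46819480), which controls exons of inhibitory synapse and channel transcripts, fell most. Its log2 signal ran from 11.10 through 11.21 to 11.34 in WT sham and from 10.36 through 10.71 to 10.79 in WT CCI. In KO sham it ran from 10.89 through 11.04 to 11.25 and in KO CCI from 10.04 through 10.42 to 10.53. Sham and injured arrays did not overlap in either genotype. Nova1 fell by 0.61 in WT (SE 0.08, limma adjusted p = 1.43e-06) and by 0.70 in KO (SE 0.08, limma adjusted p = 2.69e-07), which is 1.52-fold and 1.62-fold lower.

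Nova2 (chr7:18925888-18965319), the paralog that predominates in neocortex, moved less. Its log2 signal ran from 9.03 through 9.20 to 9.44 in WT sham and from 8.79 through 9.05 to 9.13 in WT CCI. The KO values were 9.27 to 9.48 in sham (median 9.35) and 8.79 to 9.30 after CCI (median 9.22). The groups overlapped in both genotypes, though in each the injured median was lower. Nova2 fell by 0.21 in WT (SE 0.07, limma adjusted p = 0.0325), while the KO value of -0.19 did not pass (95% interval -0.33 to -0.05, limma adjusted p = 0.0537). The WT call was lost without WT sham replicate 1, 2, 4 or 27 or without WT CCI replicate 16, 34 or 35 (limma adjusted p up to 0.0887), in each run of titles alone (0.151 and 0.415) and without the 7 arrays named above (0.27). The KO value, near the threshold, passed without WT sham replicate 2, WT CCI replicate 35, KO sham replicate 9 or KO CCI replicate 24 or 41 (limma adjusted p down to 0.0246).

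The Rbfox proteins bind a shared RNA element and are expressed in overlapping sets of neurons, with Rbfox2 also outside neurons. Rbfox1 (chr16:5884793-7412480) ran from 12.65 through 12.80 to 12.85 in WT sham and from 12.03 through 12.44 to 12.62 in WT CCI. In KO sham it ran from 12.76 through 12.85 to 12.995 and in KO CCI from 12.27 through 12.36 to 12.47. No injured array reached a sham array of its genotype. Rbfox1 fell by 0.41 in WT (SE 0.07, limma adjusted p = 7e-05) and by 0.49 in KO (SE 0.07, limma adjusted p = 9.85e-06). Without the 7 arrays the WT change was -0.63, and in title numbers 25 to 42 alone the KO change of -0.47 did not pass (limma adjusted p = 0.0642).

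Rbfox3 (chr11:118489760-118911597), the NeuN gene, ran from 11.42 through 11.47 to 11.60 in WT sham and from 10.998 through 11.11 to 11.26 in WT CCI. The KO values were 11.43 to 11.68 in sham (median 11.52) and 10.88 to 11.18 after CCI (median 11.01). Here too the sham and injured arrays were separate in both genotypes. Rbfox3 fell by 0.38 in WT (SE 0.05, limma adjusted p = 1.24e-06) and by 0.52 in KO (SE 0.05, limma adjusted p = 1.76e-08).

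Rbfox2 (chr15:77078990-77308434) went the other way in WT. Its log2 signal ran from 11.55 through 11.64 to 11.68 in WT sham and from 11.71 through 11.77 to 12.00 in WT CCI, with no overlap. In KO sham it ran from 11.53 through 11.72 to 11.78 and in KO CCI from 11.61 through 11.85 to 11.93, with overlap. Rbfox2 rose by 0.19 in WT (SE 0.06, limma adjusted p = 0.0188), and the KO value of 0.11 did not pass (95% interval -0.005 to 0.23, limma adjusted p = 0.206). The WT call was lost without WT CCI replicate 34 or 36 (limma adjusted p up to 0.059) and in each run of titles alone (0.213 and 0.194). Without the 7 arrays the WT change was 0.29 (limma adjusted p = 0.00525).

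The neuronal Elavl proteins bind AU-rich stretches and act on splicing and on the stability of transcripts. Elavl4 (HuD, chr4:110203737-110351939) ran from 10.31 through 10.44 to 10.53 in WT sham and from 9.67 through 10.03 to 10.19 in WT CCI. KO sham arrays lay between 10.13 and 10.50 (median 10.27) and KO CCI arrays between 9.67 and 10.12 (median 9.92). The groups were separate in both genotypes, in KO narrowly. Elavl4 fell by 0.43 in WT (SE 0.07, limma adjusted p = 6.8e-05) and by 0.38 in KO (SE 0.07, limma adjusted p = 0.000406), though in title numbers 25 to 42 alone the KO change of -0.40 did not pass (limma adjusted p = 0.111).

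Elavl3 (HuC, chr9:22015005-22052146) ran from 11.90 through 11.96 to 12.03 in WT sham and from 11.81 through 11.97 to 12.11 in WT CCI. In KO sham it ran from 11.96 through 12.11 to 12.35 and in KO CCI from 11.79 through 12.02 to 12.08. Its groups overlapped in both genotypes. The change was 0.01 in WT (95% interval -0.11 to 0.13, limma adjusted p = 0.96) and -0.15 in KO (-0.27 to -0.03, limma adjusted p = 0.0732), and the KO value passed without KO sham replicate 9 (0.0303) or with arrays centred on their medians (-0.20, 0.0339). The row that lists both Elavl2 and Mir6402 (Elavl2 lies at chr4:91211533-91400108) had WT means of 8.57 ± 0.06 (SD) in sham and 8.25 ± 0.09 after CCI, and KO means of 8.55 ± 0.05 and 8.27 ± 0.06. That row fell by 0.31 in WT (limma adjusted p = 3.01e-06) and by 0.28 in KO (limma adjusted p = 2.97e-05), the latter not passing in title numbers 25 to 42 alone or relative to neuron markers, and which of the genes its signal comes from cannot be read from it.

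**Figure D2:**
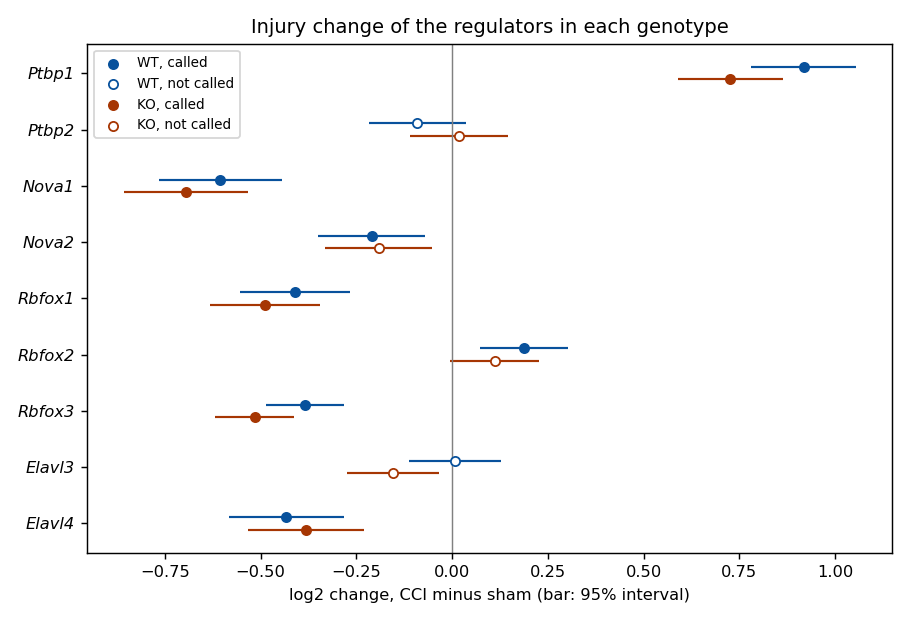
Injury change of each member (horizontal axis, log2 of CCI over sham; bars are 95% intervals; filled points passed an adjusted p of 0.05) in WT (blue) and KO (red). Ptbp1 stands apart at 0.92 and 0.73, and Nova1 is the lowest at -0.61 and -0.70.

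Members of 1 family changed unequally within the same arrays. The log2 ratio of a pair was taken within each array and compared between sham and CCI with a two-sided exact permutation test over all 3432 assignments of 7 against 7, whose smallest p is 0.000583. P-values were adjusted over 12 tests, 6 pairs in each genotype. Because rows of different genes have no common scale, only the change of a ratio is read. The ratio of Ptbp1 to Ptbp2 was 1.01 higher on the log2 scale after injury in WT (permutation p = 0.000583, adjusted 0.000999, no overlap) and 0.72 higher in KO (permutation p = 0.00117, adjusted 0.00175, the ranges overlapped). Nova1 against Nova2 fell by 0.40 in WT (permutation p = 0.00699, adjusted 0.00932, ranges overlapping) and by 0.49 in KO (permutation p = 0.000583, adjusted 0.000999, no overlap). The WT value was -0.61 without the 7 arrays, and in title numbers 1 to 24 alone it was -0.28 and did not pass (adjusted permutation p = 0.137).

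Within the Rbfox family the split lay between Rbfox2 and its paralogs. Rbfox1 against Rbfox2 fell by 0.60 in WT and by 0.60 in KO, and Rbfox2 against Rbfox3 was higher by 0.57 and 0.62, each without overlap (permutation p = 0.000583, adjusted 0.000999, in all 4 tests). Rbfox1 against Rbfox3 differed by -0.03 in WT (permutation p = 0.714) and 0.02 in KO (permutation p = 0.706), which does not show that the pair changed alike. Without the 7 arrays the WT value was -0.19 and passed (adjusted permutation p = 0.0286), and that of Rbfox1 against Rbfox2 was -0.92. Elavl3 against Elavl4 was higher by 0.44 in WT (permutation p = 0.000583, no overlap) and by 0.24 in KO (permutation p = 0.00991, adjusted 0.0119, with overlap), and the KO value did not pass in title numbers 1 to 24 alone (0.31, adjusted permutation p = 0.0762). In each genotype 5 of 6 pairs passed.

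**Figure D3:**
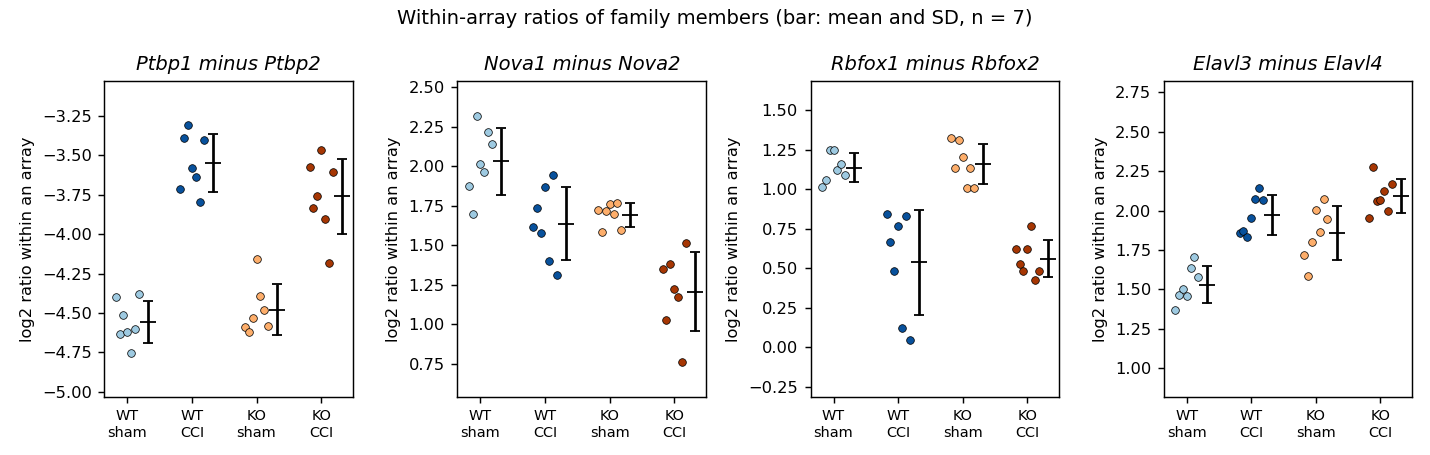
Within-array log2 ratio (vertical axis, separate range per panel) for 4 pairs of family members, by group; points are arrays and bars the mean and SD of 7. The Ptbp1 to Ptbp2 ratio was 1.01 higher and the Rbfox1 to Rbfox2 ratio 0.60 lower after CCI in WT; the level of a ratio has no meaning across genes.

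The injury changes were not found to differ between genotypes. The interaction of genotype and injury passed for 0 of 9 members in limma, and 0 of 9 had an unadjusted p under 0.05, with percent called among all rows 0. Ptbp1 came nearest, with a KO change smaller by 0.19 (interaction -0.19, 95% interval -0.38 to 0.00, limma adjusted p = 0.809, 0.0522 before adjustment). For Elavl3 the interaction was -0.16 (-0.33 to 0.01) and for Rbfox3 -0.13 (-0.28 to 0.01; -0.05 without the 7 arrays). Over both genotypes together 7 of 9 passed, against 25.4% of all rows, the same 7 as in WT. Of these Nova2 did not pass in either run of titles alone (limma adjusted p = 0.0548 and 0.121) or relative to neuron markers (0.66), and Rbfox2 not in numbers 25 to 42 (0.289).

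The loss of Rbm5 moved these regulators little in comparison. In sham mice 0 of 9 passed in limma, against 1.28% of all rows, and 3 had an unadjusted p under 0.05 (Nova1, Nova2 and Elavl3). In injured mice 0 of 9 passed, against 0.653%, and 2 had an unadjusted p under 0.05 (Nova1 and Nova2). Over both procedures 4 had an unadjusted p under 0.05. The share of all rows under that unadjusted threshold was not counted, so these counts are not read as a result about the members. Over both procedures 1 of 9 passed, against 3.16% of all rows (1.8% lower): Nova1 was lower in KO, by -0.18 in sham and -0.27 after CCI. Its pooled difference was -0.22 (SE 0.06, limma adjusted p = 0.0205). The genotype ranges overlapped in both conditions, from 10.89 to 11.25 in KO sham against 11.10 to 11.34 in WT sham, and from 10.04 to 10.53 in KO CCI against 10.36 to 10.79 in WT CCI.

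The Nova1 genotype call held without each single array (limma adjusted p up to 0.0428) and in title numbers 1 to 24 alone (-0.24, 0.031). It was lost in numbers 25 to 42 alone (-0.20, 0.655) and without the 7 arrays (-0.15, 0.348), where the difference after CCI was -0.10. Nova2 was higher in KO by 0.15 on the log2 scale without passing (95% interval 0.06 to 0.25, limma adjusted p = 0.0894), and passed without WT sham replicate 2 or KO CCI replicate 42 (down to 0.0127). Elavl3 had 0.11 (0.02 to 0.19, adjusted p = 0.21) and Elavl4 -0.12 (-0.23 to -0.01, adjusted p = 0.308). Of these, Elavl3 passed with quantile normalization and relative to neuron markers (limma adjusted p down to 0.0225). The pooled genotype difference of the other 5 members lay between -0.02 and 0.06. By sex 0 of 9 passed in limma, against 0.487% of all rows, and 0 had an unadjusted p under 0.05.

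**Figure D4:**
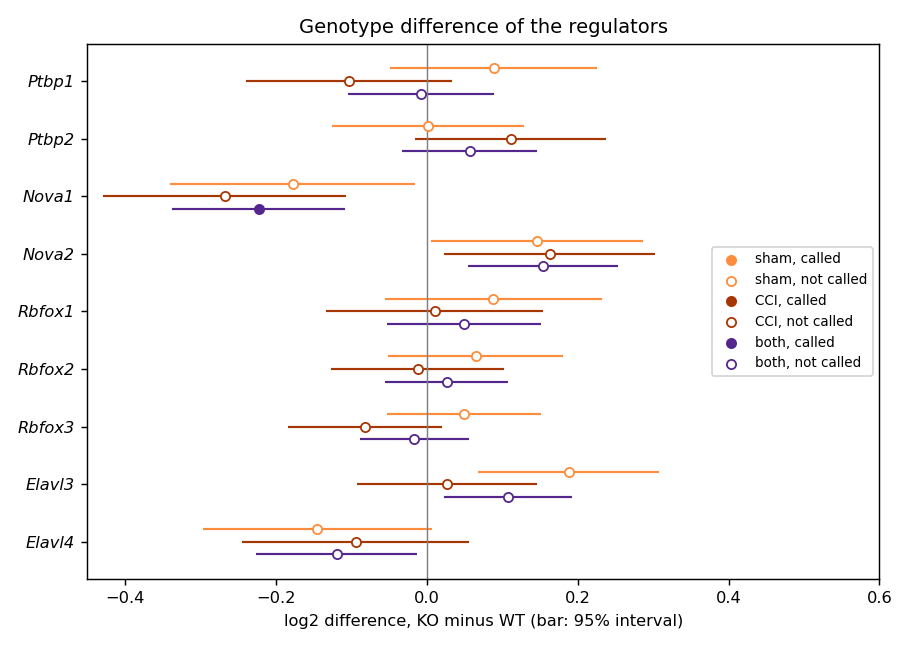
Genotype difference of each member (horizontal axis, log2 of KO over WT; bars are 95% intervals; filled points passed an adjusted p of 0.05) in sham, after CCI and over both. Nova1 over both procedures, at -0.22, is the 1 filled point.

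Cell type markers moved with injury too, and in bulk tissue fewer cells of a type and less RNA per cell cannot be told apart. Of 9 neuron markers 3 fell in each genotype (Nefl, Gad1 and Syt1), against 7.96% of all rows in WT and 8.27% in KO. None was called higher. The median change of the 9 was -0.02 in WT (from -0.55 to 0.14), against -0.02 over all rows. In KO it was -0.20 (from -0.55 to 0.04), against 0.01. The mean of the 9 on the log2 scale ran in WT from 13.59 to 13.73 in sham and 13.42 to 13.75 after CCI, and in KO from 13.56 to 13.70 and 13.32 to 13.48. Markers of monocytes and macrophages rose in 5 of 5, of astrocytes in 4 of 5 and of microglia in 4 of 6 in both genotypes. Among all rows 8.86% were called higher in WT and 8.43% in KO. Proliferation genes rose in 3 of 3, endothelial markers in 3 of 4 in WT and 2 of 4 in KO, and oligodendrocyte markers in 4 of 4 in WT and 1 of 4 in KO. Of 6 striatal and 5 choroid plexus markers 0 passed in limma in either genotype, and 1, a choroid plexus marker in KO, had an unadjusted p under 0.05. The monocyte mean ran from 5.55 to 5.82 on sham arrays and from 7.09 to 8.08 on injured ones, beside the rise of Ptbp1. Other lists were separate too: microglia (7.15 to 7.45 and 7.93 to 8.87), astrocytes (8.72 to 9.62 and 10.37 to 11.15) and proliferation (5.26 to 5.72 and 6.39 to 7.84). The part of these markers in the changes of the members was not tested.

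Centring each array on the mean of its 9 neuron markers, which did not change alike, gives the members relative to that mean. This setting was added after the data were seen. It moved the median of all rows to 0.10 in WT and 0.23 in KO, and called 11124 of 65956 rows in WT (9512 higher) and 37719 in KO (36325 higher). Against those medians Nova1 remained lower at -0.48 in WT and -0.47 in KO, Rbfox1 at -0.29 and -0.27, and Rbfox3 at -0.26 and -0.29 (limma adjusted p up to 0.00329). Elavl4 was at -0.31 in WT, which passed, and -0.16 in KO, which did not (limma adjusted p = 0.09). Ptbp1 was at 1.04 and 0.95, and Rbfox2 at 0.31 and 0.33, which passed in both genotypes, in KO beside the median of 0.23 over all rows. Nova2 lost its WT call at -0.09 and turned to 0.03 in KO, and Ptbp2 passed in KO at 0.24, near the median of all rows. The Nova1 genotype difference over both procedures was -0.15 (limma adjusted p = 0.16). In that comparison 2 of the 9 markers, Nefl and Nefm, were themselves called lower in KO, against 1.8% of all rows. The median of the 9 was -0.04.

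Of 26 other regulators of tissue-restricted splicing, 25 had a row (not Raver1). In WT 6 of 25 passed (24%, against 16.8% of all rows), 2 higher (8%, against 8.86%) and 4 lower (16%, against 7.96%), with a median of -0.06. In KO 11 of 25 passed (44%, against 16.7%), 2 higher (8%, against 8.43%) and 9 lower (36%, against 8.27%), with a median of -0.07. Relative to neuron markers 3 were higher and 1 lower in WT, and 12 higher and 0 lower in KO, where most rows were called higher under that centring. Ptbp3, the third Ptbp paralog, known from blood cells, rose together with Ptbp1. It ran in WT from 9.26 to 9.40 in sham and 9.83 to 10.39 after CCI, and in KO from 9.34 to 9.47 and 9.77 to 10.18, with no overlap, and rose by 0.75 in WT and 0.62 in KO (limma adjusted p = 9.88e-09 and 4.63e-07). Qk, a regulator of myelin and glial transcripts, rose by 0.40 in WT and 0.21 in KO (limma adjusted p = 2.17e-05 and 0.0194), and the KO call was lost on leaving out KO CCI replicate 24 or KO sham replicate 10, without the 7 arrays, in each run of titles, and with quantile normalization or median centring.

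Those that fell most were Rbm24 (-0.36) and Khdrbs3 (-0.27) in WT and Khdrbs2 (-0.42) and Khdrbs3 (-0.33) in KO; Khdrbs2 and Khdrbs3 encode the STAR-family proteins SLM1 and SLM2. The WT call of Khdrbs3 was lost without WT sham replicate 4 or WT CCI replicate 35 (limma adjusted p up to 0.0564), without the 7 arrays (0.0826), in each run of titles alone (0.221 and 0.199), relative to neuron markers (0.325) and with only the arrays compared in the fit (0.0746). In title numbers 1 to 24 alone 2 of 25 passed in WT and 5 in KO, beside 5900 and 7509 of all 65956 rows. In numbers 25 to 42 alone 4 passed in WT and 1 in KO, beside 5217 and 2567 of all rows. By genotype over both procedures 2 of 25 passed (8%, against 3.16% of all rows), Tia1 at 0.18 and Celf1 at 0.12 higher in KO (limma adjusted p = 0.000945 and 0.0141), of which Tia1 did not pass in numbers 25 to 42 alone and Celf1 in neither run alone.

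**Figure D5:**
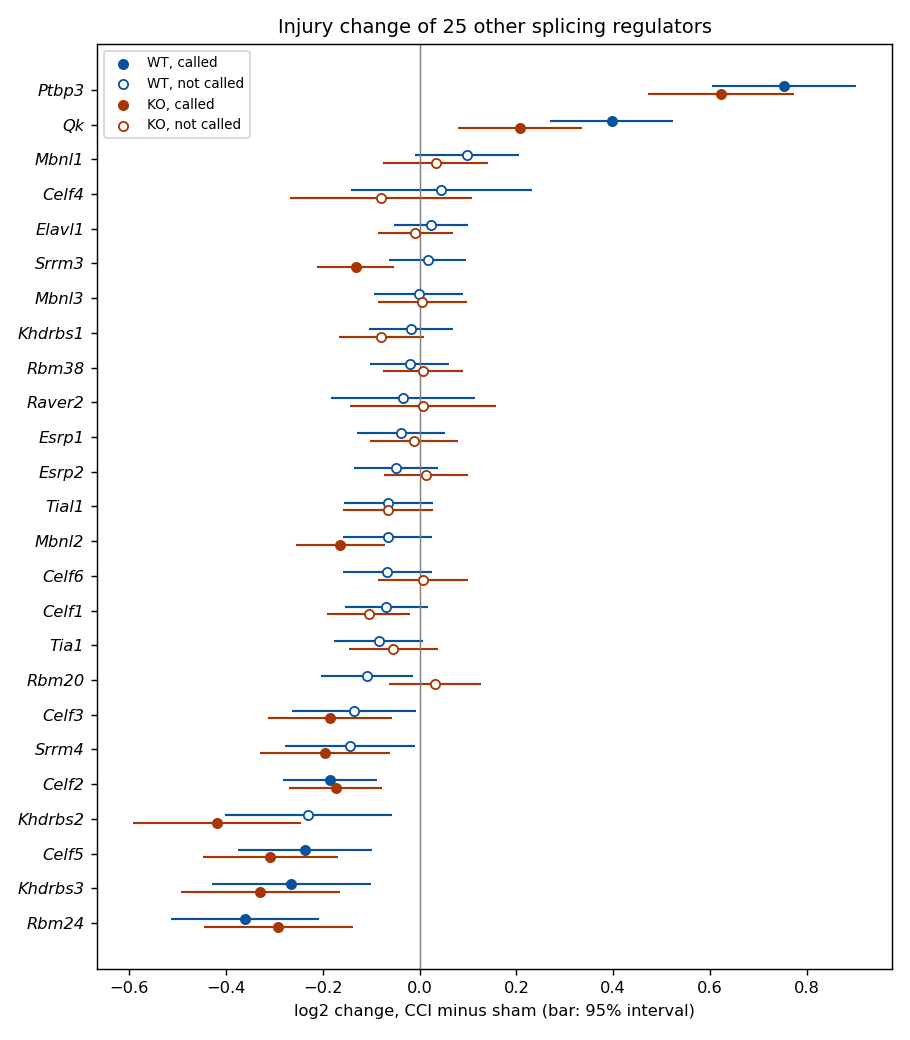
Injury change of 25 other splicing regulators (horizontal axis, log2 of CCI over sham; bars are 95% intervals; filled points passed an adjusted p of 0.05) in WT (blue) and KO (red). Ptbp3 at 0.75 and 0.62 and Qk at 0.40 and 0.21 are the filled points above 0.

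A list of transcripts known as targets of these regulators gave 12 genes that are reported here. The rows used here give 1 value for a gene, so exon choice was not examined and only the level of each transcript is given. In each genotype 8 of 12 fell (66.7%, against 7.96% of all rows in WT and 8.27% in KO) and 0 rose, with medians of -0.26 in WT and -0.26 in KO, against -0.02 and 0.01 over all rows. In WT the largest falls were Cacna1b (an N-type calcium channel subunit) at -0.37 and Dab1 (the reelin signal adaptor) at -0.30, and in KO Vamp1 (a synaptic vesicle protein) at -0.53 and Camk2a (a synaptic kinase) at -0.32. Of the 8 calls in WT, that of Vamp1 (-0.28, limma adjusted p = 0.0459) was lost on leaving out any 1 of 16 of the 28 arrays (replicates 1, 3, 25, 26 and 27 of WT sham, 15, 16, 34, 35 and 36 of WT CCI, 10, 11, 12 and 33 of KO sham, and 23 and 42 of KO CCI), and in title numbers 1 to 24 alone. Relative to the neuron markers 1 of 12 passed in WT, lower, and 3 in KO, of which 2 were higher. Under that centring 11124 of all 65956 rows passed in WT and 37719 in KO. In numbers 1 to 24 alone 3 of 12 passed in WT and 6 in KO, beside 5900 and 7509 of all rows. In numbers 25 to 42 alone 5 passed in WT and 1 in KO, beside 5217 and 2567 of all rows.

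Vamp1 was also lower in KO over both procedures, the 1 of 12 that passed by genotype, against 3.16% of all rows. In sham mice it ran from 10.49 through 10.71 to 11.11 in WT and from 10.09 through 10.47 to 10.60 in KO, and in injured mice from 10.22 through 10.56 to 10.61 and from 9.62 through 10.01 to 10.27. The difference was -0.44 (SE 0.07, limma adjusted p = 0.000165) and did not pass in title numbers 25 to 42 alone. Of the 9 neuron markers 2 were lower in KO as well, Nefl (-0.35) and Nefm (-0.28), against 1.8% of all rows. The other 7 did not pass, and the median of the 9 was -0.04. The part of neuron markers in the Vamp1 difference was not tested.

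Named genes with profiles most like 3 of the members were found by the root mean square (RMS) difference over the 28 arrays, each gene centred on its own mean. Nearest to Ptbp1, whose own RMS deviation was 0.43, were Lap3 (0.10), Apobec3 (0.11) and Gnai2 (0.11). Nearest to Nova1 (own 0.37) were Hecw2 (0.13), Adam23 (0.13) and Atp2b2 (0.14), and to Rbfox3 (own 0.24) Tanc2 (0.07), Gnai1 (0.08) and Herc3 (0.08). The likeness includes the difference between sham and injured groups that the arrays share.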

How the data were processed

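The 28 arrays fall into 4 groups of 7 by the genotype and injury labels. The authors' deposited values are log2 signal, judged from their range (2.17 to 19.93). Their normalization and software are not stated in the labels used here, and none was added. Of 72688 rows, 6732 controls were left out. Of the 65956 tested, 30468 carried 1 gene symbol in the supplied annotation and 612 older names of 1 gene; 1670 listed several genes and 33206 none. Names were updated through RefSeq (GRCm38.p6), and 97 rows on another chromosome than their gene stayed unnamed.

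No filter on low values was applied. Differences were fitted with limma 3.58.1 (R 4.3.3). Ratios were tested by going through all assignments in numpy 2.4.6, and that test was checked on random numbers against scipy 1.17.1. The script was tested on simulated data. Arrays give no depth, so their number limits the precision. Alternatives were the sex term, the run of titles, normalization, centring, variance trend, array weights, row filters and leaving out arrays. From each list the text names up to 2 called genes with the largest change per direction. Members and lists were chosen with earlier results of these data known.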

Additional observations from a re-analysis of the deposited data

Results flagged for a closer look

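Of 64 sets of 7 arrays tested for a value standing apart, 1 met the limit, and chance alone marks about 1 in 20. The lowest Elavl3 signal in KO CCI, replicate 40 at 11.794, lay 0.63 of the range of its group below the next array, at 11.973. The Elavl3 injury change in KO did not pass the test with this array included (-0.15, limma adjusted p = 0.0732) and was -0.14 (0.156) without the 7 arrays in which striatal or choroid plexus markers ran high, of which it is one.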

How the results depend on the processing

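Nova1, Rbfox1, Rbfox3, Elavl4, Ptbp1 and Rbfox2 kept the direction of their injury calls under every alternative run, and the calls of members that were lost are given beside each. Nova2 in KO, just short of the threshold, passed with no sex term, median centring, array weights, brighter rows or rows with 1 gene symbol, and Elavl3 in KO with the last pair of filters. Leaving out each array in turn left 5 to 7 members past the threshold for injury in WT, 5 to 7 in KO, 7 over both genotypes, and 1 to 2 for genotype over both procedures, with 5 of 6 within-family ratios in each genotype. For injury in KO 3 members passed in title numbers 25 to 42 alone (2567 rows in all), where 3 arrays a group remained, and not 5. For genotype over both procedures, where 1 passed, 0 passed in title numbers 25 to 42 alone (74 rows in all). Without the 7 arrays in which striatal or choroid plexus markers ran high 0 passed (961 rows in all). With quantile normalization 3 passed (2054 rows in all), among brighter rows 2 (2510), and with arrays centred on neuron markers 2 (2579). With that centring, added after the data were seen, Ptbp2 over both genotypes turned from -0.04 to 0.13, beside a median of all rows of 0.17. The cause was not tested. No paired analysis was possible because the groups share no replicate numbers. Averaging several rows of a symbol was not run, since each member has 1 row. Ratios in title numbers 25 to 42 alone, 3 against 3, cannot pass the threshold.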
